A study of Rattus norvegicus with 18 samples.

Results

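The interferon response genes described here were 52 listed gene symbols, and each was followed on every array through the brightest probe that carried its name. Probes were found for 49 of the 52, and Xaf1, Ifi47 and Parp14 were not analysed here. Of the 49, 48 were tested, since in 1 group or more every array measured them well above background, among 20846 gene names, out of 26583 with a probe. Ifit1 was well above background on only 1 of 18 arrays and was not tested. Of the 48 tested members, 47 were well above background on all 18 arrays, and Zbp1 was so on 17. The gene names were those of the array design, and 46 of the 49 also matched a RefSeq gene of the same symbol.

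RNA came from adrenal glands of untreated rats of 3 strains, the normotensive WKY, the spontaneously hypertensive SHR and the stroke-prone SHRSP. The glands were taken at 3 or 6 weeks of age, giving 6 groups of 3 arrays, each from a separate sample described in the labels as a biological replicate. The sources used here give neither the animals' sex nor the time of day, and p-values measure only the spread between these samples. Levels are log2 signal relative to the 75th percentile of the same array, differences are on that log2 scale with limma's standard error and n = 3 arrays a group, and a member is called, or said to have risen or fallen, at a Benjamini-Hochberg adjusted p under 0.05 over all tested names. Levels of different genes come from different probes and were not compared with each other.

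On each array, 77.8% to 84.8% of spots were well above background and none was saturated. Markers of both parts of the gland were measured: 10 of 10 tested cortex genes had mean levels of 5.04 to 5.65, and 10 medulla genes 0.24 to 1.15. The medulla markers were higher than in WKY for 4 of 10 genes in SHR and 7 in SHRSP at 3 weeks, and for 7 and 6 at 6 weeks, with 1, 1, 1 and 0 lower. Of all tested names, 9.01%, 14.8%, 16.2% and 11.1% were higher in these comparisons, in the same order. The shares lower were 9.20%, 11.4%, 13.0% and 12.8%. The mean level of 8 liver and kidney genes was -1.04 on replicate 2 and -3.53 on replicate 3 of SHR, and -3.25 on replicate 2 of SHRSP, all at 3 weeks, and between -5.58 and -4.34 on the other 15 arrays. The part of these markers in the members' differences was not tested. In whole tissue, fewer cells that express a gene and less RNA per cell cannot be told apart.

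Interferons are secreted proteins that cells release when they sense viral or displaced nucleic acid. Type I interferons act through receptor-bound kinases on a complex that includes STAT2 and IRF9, which binds a short DNA element in the promoters of many genes. Those genes encode sensors of foreign RNA, enzymes that block translation or degrade RNA, membrane proteins that hold back virus particles, and the regulators that sustain or end the response.

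The DNA element was looked for in the members' promoters, which were not used to choose the list. RefSeq promoters of the GRCr8 build, reaching from 250 bases before to 50 bases after a gene's start, were found for 35 of the 49 members. The core of the interferon-stimulated response element, 2 copies of GAAA separated by any pair of bases (NN) and read on either strand, was present in 24 of 35 (68.6%), against 3.92% of the 33469 promoters in the table. The gamma-activated site, TTCNNNGAA, which reads the same on both strands, was present in 10 of 35 (28.6%) against 8.87%. A match is a description of the letters only. The 150 bases before the start are shown for 6 members, picked after their values were seen: Oas1a, Irf7 and Ifit3 moved with most other members from array to array, and Ifi44l, Isg20 and Oasl differed between strains with no overlap of the arrays in the comparisons described with each. Capitals mark the response element core on either strand, and the Oas1a promoter holds 2 overlapping copies.
Oas1a, chr12:41330316-41330465, plus strand: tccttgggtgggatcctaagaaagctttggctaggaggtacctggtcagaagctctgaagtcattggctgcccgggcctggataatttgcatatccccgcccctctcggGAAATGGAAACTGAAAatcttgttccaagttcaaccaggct
Irf7, chr1:205800024-205800173, minus strand: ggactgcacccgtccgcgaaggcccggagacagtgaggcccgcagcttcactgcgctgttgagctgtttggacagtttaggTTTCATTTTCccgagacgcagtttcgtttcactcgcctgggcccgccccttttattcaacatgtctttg
Ifit3, chr1:241527176-241527325, plus strand: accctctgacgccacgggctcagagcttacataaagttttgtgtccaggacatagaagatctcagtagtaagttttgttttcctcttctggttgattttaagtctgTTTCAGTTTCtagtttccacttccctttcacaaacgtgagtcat
Ifi44l, chr2:243328573-243328722, plus strand: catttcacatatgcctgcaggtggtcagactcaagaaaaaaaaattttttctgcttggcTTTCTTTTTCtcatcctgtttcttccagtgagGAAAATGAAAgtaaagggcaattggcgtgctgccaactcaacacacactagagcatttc
Isg20, chr1:142239909-142240058, plus strand: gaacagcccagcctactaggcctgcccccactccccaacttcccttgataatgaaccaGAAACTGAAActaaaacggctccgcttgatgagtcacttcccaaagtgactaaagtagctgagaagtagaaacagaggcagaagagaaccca
Oasl, chr12:47356293-47356442, minus strand: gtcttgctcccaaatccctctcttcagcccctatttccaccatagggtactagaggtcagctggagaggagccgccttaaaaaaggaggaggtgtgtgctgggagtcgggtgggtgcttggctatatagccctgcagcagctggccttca

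The members did not all shift in the same direction between strains, though most were lower in SHRSP at 3 weeks. There, 66.7% of members had a negative difference from WKY and 72.9% from SHR, against 37.9% and 35.8% of all names. At 3 weeks, SHR against WKY had 5 members higher and 4 lower of 48, near the 18.2% of all tested names that were called (9.01% higher and 9.20% lower). SHRSP against WKY at 3 weeks had 4 higher and 16 lower, where 26.2% of all names were called (14.8% higher and 11.4% lower). Their median difference was -0.39, while that of all tested names was 0.09. Against SHR at the same age, SHRSP had 1 member higher and 9 lower, with 7.94% of all names called (4.73% higher and 3.20% lower), and a median of -0.42 against 0.09. These comparisons share their SHRSP or WKY arrays. The 20 calls of SHRSP against WKY became 13 without replicate 2 of WKY and 13 without replicate 2 or replicate 3 of SHRSP, all at 3 weeks, and 26 without replicate 1 of WKY at 3 weeks. The 10 calls of SHRSP against SHR at 3 weeks became 6 without replicate 1, 2 or 3 of SHR or without replicate 3 of SHRSP.

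At 6 weeks the counts between strains were smaller. SHR against WKY had 3 members higher and 5 lower, with 29.2% of all names called (16.2% higher and 13.0% lower). SHRSP against WKY had 3 higher and 4 lower, with 23.9% of all names called (11.1% higher and 12.8% lower). SHRSP against SHR had 3 higher and 4 lower, with 14.9% called (6.74% higher and 8.21% lower). The members' medians in these comparisons were -0.07, -0.13 and 0.02, against 0.09, -0.01 and -0.11 for all tested names.

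The comparison with most calls was that of the ages in SHRSP. From 3 to 6 weeks, 22 members rose and 5 fell in SHRSP, where 28.9% of all names were called (10.5% higher and 18.4% lower), and the median difference was 0.46 against -0.09 for all names. In WKY, 4 rose and 2 fell with 12.3% of all names called (5.16% higher and 7.16% lower). In SHR, 6 rose and 4 fell with 29.3% called (15.1% higher and 14.1% lower). Markers of other cell types were called in the same comparison: 5 of 10 endothelial, 3 of 8 adipose, 2 of 5 neutrophil and 2 of 5 dendritic genes fell and none of them rose, with medians of -0.35, -0.91, -1.09 and -0.58, and 1 cortex gene rose and 4 fell of 10. The dendritic list shares Bst2 with the members, and the part of these markers in the members' rise was not tested. The 27 calls in SHRSP became 18 without replicate 3 of SHRSP at 3 weeks. The 6 calls in WKY became 3 without any 1 of its 3 arrays at 3 weeks or without its replicate 2 at 6 weeks.

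Each test of the difference between age changes called fewer members than the 27 called with age in SHRSP. The change with age in SHRSP exceeded that in SHR for 9 members and lay below it for 3, with 11.9% of all names called (4.43% higher and 7.47% lower). Against WKY, the SHRSP age change was higher for 2 members and lower for 2, with 10.1% called (3.71% higher and 6.35% lower). Between SHR and WKY 1 member differed, lower in SHR, with 5.81% called (3.41% higher and 2.40% lower). The 12 calls of SHRSP against SHR became 7 without replicate 2 of SHRSP at 3 weeks, without replicate 3 of SHR at 6 weeks or without replicate 1 of SHRSP at 6 weeks.

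**Figure D1:**
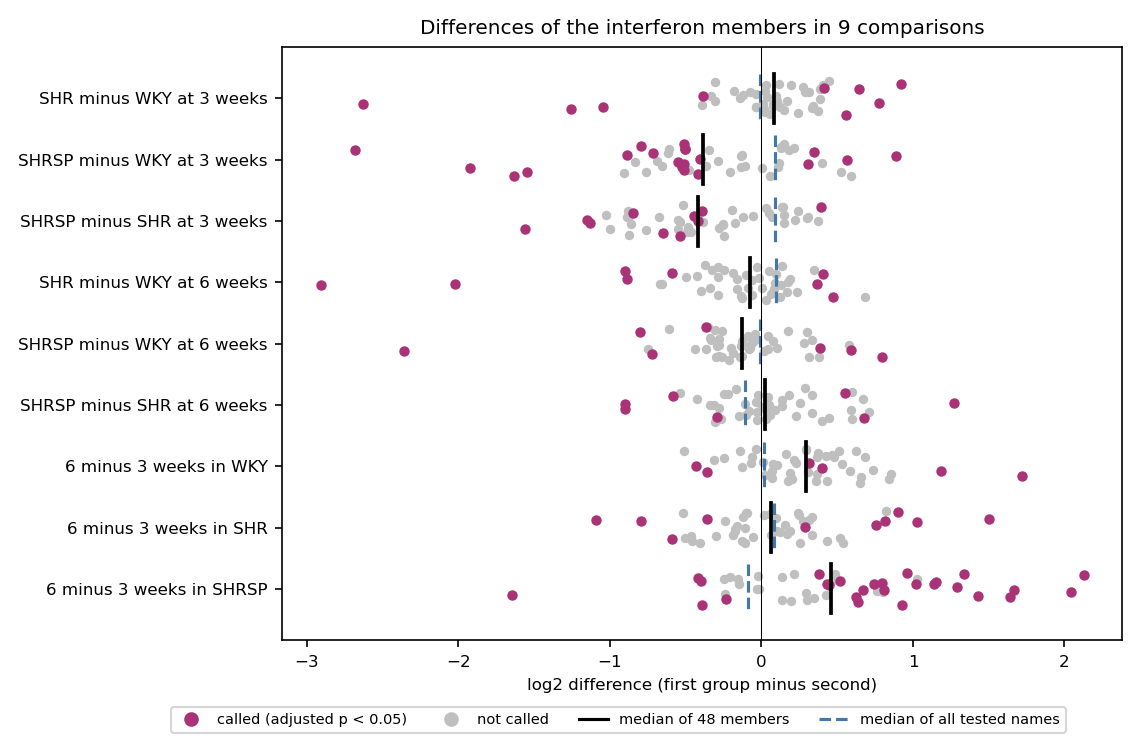
Each point is 1 of the 48 tested members, placed by its log2 difference between the 2 groups named on the vertical axis; purple points are called and grey points are not, the black bar is the members' median and the dashed bar that of all tested names. Members lie mainly left of the dashed bar in SHRSP at 3 weeks (medians of -0.39 and -0.42) and mainly right of it for age in SHRSP (median 0.46), while Ifi44l forms the far left point of each comparison of a hypertensive strain with WKY.

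Among the factors that carry the signal, Stat2 and Irf9, partners in the DNA-binding complex of type I interferon, differed little between strains. Stat2 measured 0.93, 1.13 and 1.18 in WKY, 1.18, 1.13 and 1.36 in SHR, and 1.03, 1.02 and 0.78 in SHRSP at 3 weeks. At 6 weeks its values were 1.37, 1.51 and 1.23 in WKY, 1.36, 1.70 and 1.44 in SHR, and 1.39, 1.40 and 1.18 in SHRSP. The strains overlapped at 6 weeks, and Stat2 rose with age in SHRSP by 0.38 ± 0.12 (limma, adjusted p = 0.0243), a call lost without replicate 3 of SHRSP at 3 weeks (0.30), or replicate 1 or 2 of SHRSP at 6 weeks (0.35 and 0.34). Irf9 measured -3.58, -2.59 and -2.55 in WKY, -3.0, -2.90 and -2.61 in SHR, and -2.97, -3.20 and -3.58 in SHRSP at 3 weeks. Its 6-week values were -2.35, -2.74 and -2.94 in WKY, -2.82, -2.60 and -2.79 in SHR, and -2.38, -2.95 and -2.99 in SHRSP. The low Irf9 values were single arrays, replicate 1 of WKY and replicate 3 of SHRSP at 3 weeks, and no comparison of Irf9 was called.

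Irf7, the factor that amplifies interferon production once the response has begun, showed the same single arrays. At 3 weeks it measured -0.39, 0.28 and 0.51 in WKY, -0.08, 0.05 and 0.61 in SHR, and -0.49, -0.39 and -1.21 in SHRSP. The 6-week values were 0.84, 1.11 and 0.43 in WKY, 0.41, 1.03 and 0.74 in SHR, and 0.92, 0.21 and 0.24 in SHRSP. The 3 SHRSP arrays at 3 weeks were among the 4 lowest of all 18, and replicate 1 of WKY was the other, while the difference from WKY was -0.83 ± 0.30 (adjusted p = 0.0551). With age Irf7 rose in SHRSP by 1.16 ± 0.30 (adjusted p = 0.0102), and without replicate 3 of SHRSP at 3 weeks the value was 0.90 with an adjusted p of 0.0544.

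Irf1 and Irf8, which bind related elements and are induced mainly by interferon gamma, had patterns of their own. Irf1 was lower at 3 weeks in SHR by -1.26 ± 0.22 (adjusted p = 0.00131) and in SHRSP by -0.89 ± 0.22 (adjusted p = 0.00919) than in WKY. At that age its values were 2.21, 2.37 and 2.07 in WKY, 1.14, 0.82 and 0.93 in SHR, and 1.36, 1.52 and 1.12 in SHRSP, with no overlap between WKY and either strain. A second Irf1 probe gave -1.13 and -0.70 for the same comparisons. At 6 weeks neither strain differed from WKY by the test, and replicate 3 of WKY (1.33) lay within the range of SHR.

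Irf8, a factor of myeloid cells, was the member that fell with age in all 3 strains. Its values at 3 weeks were -5.55, -5.44 and -5.38 in WKY, -4.90, -5.07 and -5.16 in SHR, and -4.98, -4.73 and -4.97 in SHRSP. At 6 weeks they were -5.86, -5.73 and -5.85 in WKY, -5.85, -5.42 and -5.64 in SHR, and -6.59, -6.53 and -6.49 in SHRSP. SHRSP arrays thus lay above every WKY array at 3 weeks and below every array of both strains at 6 weeks. It was higher than in WKY by 0.56 ± 0.11 in SHRSP at 3 weeks (adjusted p = 0.00162) and lower by -0.73 ± 0.11 at 6 weeks (adjusted p = 0.000225), and lower than in SHR by -0.90 ± 0.11 (adjusted p = 9.35e-05). The fall with age was -1.64 ± 0.11 in SHRSP (adjusted p = 2.17e-07), -0.59 ± 0.11 in SHR (adjusted p = 0.00121) and -0.36 ± 0.11 in WKY (adjusted p = 0.0469). The WKY call was lost in 13 of the 18 refits that each left out 1 array, with values from -0.40 to -0.32, and the SHRSP calls held in all of them. The higher level in SHR at 3 weeks, 0.41, lost its call without replicate 1 of WKY or replicate 1 of SHR.

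Macrophage markers moved in both directions with age in SHRSP, with a median of -0.22. Of 14 tested macrophage genes, 3 rose and 2 fell with age in SHRSP, and the range of their mean level was -0.97 to -0.86 at 3 weeks and -1.02 to -0.77 at 6 weeks. At 3 weeks, 7 of them were higher and 1 lower in SHRSP than in WKY, whose range was -1.36 to -1.22. Of all names, 14.8% were higher and 11.4% lower there, and 10.5% rose and 18.4% fell with age in SHRSP. Of 5 tested dendritic and 5 tested neutrophil genes, 2 of each fell with age in SHRSP and none rose, with medians of -0.58 and -1.09. The part of all these markers in the Irf8 differences was not tested.

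Nmi and Ifi35, partner proteins that bind each other and dampen or carry cytokine signals, were both lower in SHRSP at 3 weeks. Ifi35 measured -0.39, -0.23 and -0.33 in WKY, -0.38, -0.39 and -0.54 in SHR, and -0.65, -0.83 and -1.01 in SHRSP. Values at 6 weeks were -0.12, -0.38 and -0.24 in WKY, -0.25, -0.33 and -0.42 in SHR, and -0.44, -0.62 and -0.79 in SHRSP. At both ages every SHRSP array lay below every array of the other strains. Its difference from WKY was -0.51 ± 0.11 at 3 weeks (adjusted p = 0.00319) and -0.37 ± 0.11 at 6 weeks (adjusted p = 0.0243). The 6-week call was lost in 4 of 18 refits, without replicate 1 or 3 of WKY or replicate 2 or 3 of SHRSP, with values from -0.46 to -0.28. The call against SHR at 3 weeks (-0.39) was lost in 11. Nmi was lower in SHRSP at 3 weeks than in WKY by -0.51 ± 0.10 (adjusted p = 0.00142) and than in SHR by -0.54 ± 0.10 (adjusted p = 0.00355), and the age change in SHRSP exceeded that in SHR by 0.55 ± 0.14 (adjusted p = 0.0187).

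Of the 6 sensors and RNA-binding enzymes, 5 rose with age in SHRSP and none fell, where 10.5% of all names rose and 18.4% fell. They were Ddx58, Ifih1 and Dhx58, which recognise double-stranded RNA in the cytosol, Adar, which edits it, and Eif2ak2, the kinase that halts translation, which rose by its brightest probe and not by its other (0.40, adjusted p = 0.243 over all probes). Ddx58 rose by 0.93 ± 0.18 (adjusted p = 0.00141) and Ifih1 by 0.64 ± 0.16 (adjusted p = 0.009), and both calls held in all 18 refits without 1 array. Dhx58 rose by 0.96 ± 0.29 (adjusted p = 0.0206), a call lost without replicate 3 of SHRSP at 3 weeks (0.71) or replicate 1 of SHRSP at 6 weeks (0.83). Adar rose by 0.67 ± 0.19 (adjusted p = 0.0181), a call lost without the same arrays (0.60 and 0.48). For Ifih1 the age change in SHRSP exceeded that in SHR by 0.80 ± 0.23 (adjusted p = 0.0373), a call lost in 9 of 18 refits with values from 0.62 to 0.94.

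Eif2ak2 was high in 1 group at each age, and its 2 probes disagreed on it. The brightest probe measured -2.79, -2.41 and -2.44 in WKY, -1.75, -1.57 and -1.55 in SHR, and -2.61, -2.72 and -2.94 in SHRSP at 3 weeks. In the older animals it measured -2.41, -2.54 and -2.66 in WKY, -2.58, -2.21 and -2.46 in SHR, and -1.66, -1.76 and -1.80 in SHRSP. High arrays were therefore all those of SHR at 3 weeks and of SHRSP at 6 weeks, with no overlap with the other groups. The differences from WKY were 0.92 ± 0.13 for SHR at 3 weeks (adjusted p = 0.000173) and 0.80 ± 0.13 for SHRSP at 6 weeks (adjusted p = 0.00034). SHRSP lay below SHR by -1.13 ± 0.13 at 3 weeks (adjusted p = 8.55e-05) and above it by 0.68 ± 0.13 at 6 weeks (adjusted p = 0.00225). With age the level fell by 0.79 in SHR (adjusted p = 0.000404) and rose by 1.02 in SHRSP (adjusted p = 4.49e-05).

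The second Eif2ak2 probe gave none of these calls. Its differences from WKY were 0.05 ± 0.22 for SHR at 3 weeks and -0.08 ± 0.22 for SHRSP at 6 weeks, and SHRSP differed from SHR by -0.31 ± 0.22 at 3 weeks and -0.13 ± 0.22 at 6 weeks. Its age changes were 0.22 in SHR and 0.40 in SHRSP. In a fit across all probes, the adjusted p of the second probe ranged from 0.243 to 0.935 over the pairwise comparisons. The strain pattern of Eif2ak2 was measured by 1 of 2 probes, and with their mean it was no longer called for SHRSP against WKY or SHR at 6 weeks, for age in SHR or for 2 of its 3 differences between age changes. Where each probe lies within the transcript was not analysed here, and the cause of the disagreement was not tested.

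**Figure D2:**
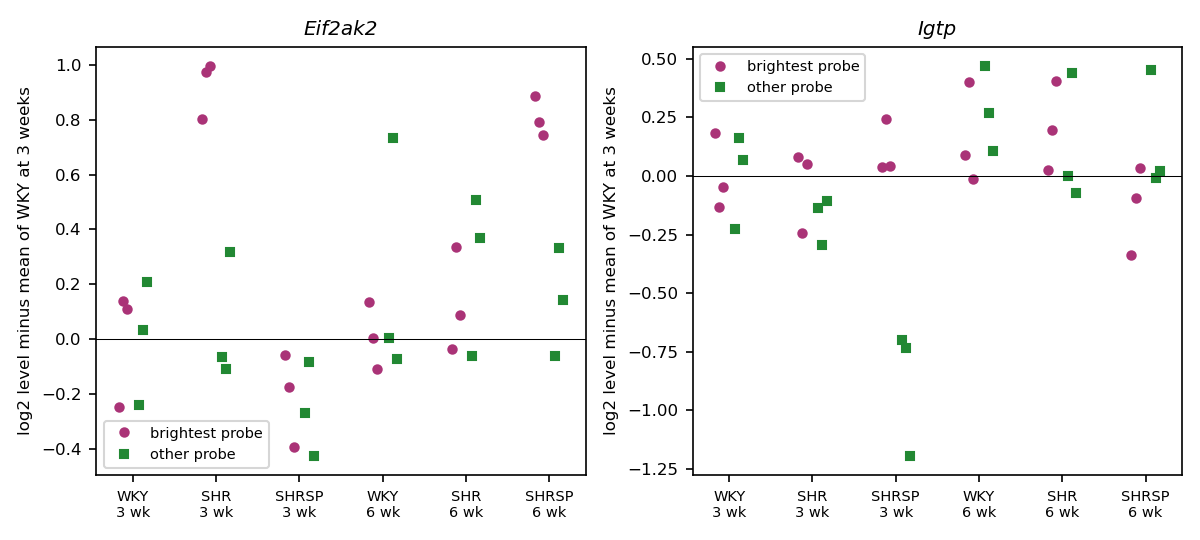
The log2 level of Eif2ak2 (left) and Igtp (right) on each of 18 arrays is plotted by group, minus the mean of WKY at 3 weeks of the same probe; circles are the brightest probe and squares the other. The circles of Eif2ak2 stand apart in SHR at 3 weeks and SHRSP at 6 weeks while its squares do not, and the squares of Igtp lie low in SHRSP at 3 weeks while its circles do not.

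The oligoadenylate synthetase family is named for enzymes whose product activates the RNA-degrading RNase L, although not every member, Oasl among them, makes that product. Of its 7 members here, only Oasl and Oasl2 were called in any of the 9 pairwise comparisons. Both were called between strains, and 50% of all tested names were called in at least 1 of the 6 strain comparisons. Oasl was low in 1 group. It measured -4.96, -4.38 and -4.34 in WKY, -4.84, -4.60 and -4.47 in SHR, and -5.94, -6.28 and -6.36 in SHRSP at 3 weeks. At 6 weeks it measured -4.60, -4.68 and -4.09 in WKY, -4.70, -4.75 and -4.78 in SHR, and -4.41, -4.78 and -5.11 in SHRSP. The 3 SHRSP arrays at 3 weeks lay below the other 15 arrays, with differences of -1.64 ± 0.21 from WKY (adjusted p = 6.81e-05) and -1.56 ± 0.21 from SHR (adjusted p = 0.000421). The rise with age in SHRSP was 1.43 ± 0.21 (adjusted p = 0.000173), larger than that in WKY by 1.33 ± 0.29 (adjusted p = 0.0115) and than that in SHR by 1.54 ± 0.29 (adjusted p = 0.00404). Each of these calls held in all 18 refits without 1 array. The difference of Oasl between SHRSP and WKY at 3 weeks was -0.98 on slide 1 and -2.02 on slide 4, the slides that held both. Since the arrays did not overlap, its sign on each slide was fixed in advance.

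The Oasl probe is shown because the result rests on this single 60-base sequence. In the rn4 annotation of the array its match on chromosome 12, minus strand, runs from 42958314 to 42959155, a span of 842 bases that therefore crosses an intron. The Ifi44l probe, which carries the largest strain difference described further on, likewise spans 673 bases, from 4149011 to 4149683 on the plus strand of the unplaced sequence 2_random.
Oasl probe: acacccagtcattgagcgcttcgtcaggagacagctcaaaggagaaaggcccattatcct
Ifi44l probe: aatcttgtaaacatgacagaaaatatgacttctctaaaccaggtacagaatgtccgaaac

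Oasl2, its neighbour on chromosome 12, was low in the same group and followed the other members more closely. At 3 weeks it measured -1.73, -1.17 and -0.97 in WKY, -1.86, -1.84 and -1.34 in SHR, and -2.55, -2.59 and -3.36 in SHRSP. The 6-week values were -1.02, -0.90 and -1.34 in WKY, -2.14, -1.77 and -2.04 in SHR, and -1.45, -1.74 and -1.88 in SHRSP. All SHRSP arrays at 3 weeks lay below all other arrays, by -1.54 ± 0.24 against WKY (adjusted p = 0.000312) and -1.15 ± 0.24 against SHR (adjusted p = 0.00863). At 6 weeks SHR lay below WKY by -0.90 ± 0.24 (adjusted p = 0.0118). The age change in SHRSP exceeded that in SHR by 1.44 ± 0.34 (adjusted p = 0.0135). Oas1a, Oas1b, Oas1k, Oas2 and Oas3 were called in none of the comparisons; Oas1a and Oas1k ranged over more than 1 log2 unit between arrays of 1 group, and Oas3 reached -4.17 on replicate 2 of WKY at 6 weeks against -5.94 and -6.29 on the other arrays of that group.

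Of the 12 tested antiviral effectors, Isg20, a nuclease that degrades RNA, was the one most often called. It measured -2.30, -2.56 and -2.35 in WKY, -1.84, -1.79 and -1.64 in SHR, and -1.66, -1.52 and -1.38 in SHRSP at 3 weeks. Values at 6 weeks were -2.42, -2.69 and -2.49 in WKY, -2.02, -2.34 and -2.0 in SHR, and -1.83, -1.85 and -2.14 in SHRSP. Every SHR and SHRSP array lay above every WKY array of its age. The differences from WKY at 3 weeks were 0.64 ± 0.12 in SHR (adjusted p = 0.00217) and 0.89 ± 0.12 in SHRSP (adjusted p = 0.000137). At 6 weeks they were 0.41 ± 0.12 in SHR (adjusted p = 0.023) and 0.59 ± 0.12 in SHRSP (adjusted p = 0.0028). The SHR call at 6 weeks was lost without replicate 2 of WKY or without replicate 1 or 3 of SHR, with refitted values between 0.33 and 0.52, and the other 3 strain calls held in all 18 refits. With age Isg20 fell by 0.36 in SHR (adjusted p = 0.0399) and by 0.42 in SHRSP (adjusted p = 0.0196), and the refits lost these calls 6 and 3 times of 18.

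Ifitm2, of the membrane proteins that block virus entry, was also higher in the hypertensive strains in 3 of 4 comparisons. It measured 4.01, 3.96 and 3.93 in WKY, 4.27, 4.18 and 4.28 in SHR, and 4.16, 4.37 and 4.40 in SHRSP at 3 weeks. In the older animals it measured 3.57, 3.40 and 3.62 in WKY, 4.04, 3.82 and 4.14 in SHR, and 3.93, 4.01 and 3.81 in SHRSP. All 12 arrays of the hypertensive strains lay above the WKY arrays of their age. The differences were 0.34 ± 0.10 for SHRSP at 3 weeks (adjusted p = 0.015), 0.47 ± 0.10 for SHR at 6 weeks (adjusted p = 0.00206) and 0.38 ± 0.10 for SHRSP at 6 weeks (adjusted p = 0.00838). For SHR at 3 weeks the difference was 0.28 ± 0.10 (adjusted p = 0.0582) and was not called. The SHRSP call at 3 weeks was lost without replicate 3 of WKY or replicate 2 or 3 of SHRSP at 3 weeks, with values from 0.30 to 0.42. With age it fell by 0.43 in WKY (adjusted p = 0.00884) and by 0.39 in SHRSP (adjusted p = 0.00666). Ifitm1 fell by 0.24 with age in SHRSP, and Ifitm3 was called nowhere.

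Mx1, the GTPase that traps viral nucleoproteins, differed in no comparison. It measured -1.0, -0.73 and -0.50 in WKY, -0.75, -0.58 and 0.05 in SHR, and -0.58, -0.47 and -0.99 in SHRSP at 3 weeks. At 6 weeks it measured 0.14, 0.21 and -0.59 in WKY, -0.20, 0.12 and 0.10 in SHR, and 0.04, -0.44 and -0.24 in SHRSP. The strains overlapped at both ages, and the largest difference was with age in WKY, 0.66 ± 0.24 (adjusted p = 0.0957).

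Ifit2, which binds RNA and limits its translation, fell with age in SHR by 1.09 (standard error 0.18, adjusted p = 0.000596) and was lower at 6 weeks in SHR than in WKY by -0.88 ± 0.18 (adjusted p = 0.00218). It lacked a value on replicate 3 of SHRSP at 3 weeks, where the scanner software marked the spot as an outlier, so n = 2 arrays there. Its age change in SHRSP exceeded that in SHR by 0.94 ± 0.26 (adjusted p = 0.0363), a call lost in 8 of 18 refits. Rtp4 rose with age in SHRSP by 1.67 ± 0.32 (adjusted p = 0.00158) and Ifit3 by 1.34 ± 0.39 (adjusted p = 0.0175). The Ifit3 call was lost without replicate 3 of SHRSP at 3 weeks (1.08) or replicate 1 at 6 weeks (1.23). Bst2, which tethers virus particles to the cell surface, rose with age in SHR by 1.02 ± 0.15 (adjusted p = 0.000244). Cmpk2 and Bst2 also differed in age change between SHRSP and SHR, by 0.88 ± 0.25 (adjusted p = 0.0359) and -0.73 ± 0.22 (adjusted p = 0.0403), calls lost in 7 and 12 of 18 refits. Mx2 and Rsad2 were called in no pairwise comparison.

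Isg15, the small protein that is attached to others as ubiquitin is, spread widely between arrays of a group. It measured -1.59, -0.23 and 0.0005 in WKY, -0.75, -0.30 and 0.39 in SHR, and -0.97, -0.89 and -1.80 in SHRSP at 3 weeks. The 6-week values were 0.41, 0.44 and -0.10 in WKY, -0.23, 0.29 and 0.28 in SHR, and 1.19, 0.72 and 0.57 in SHRSP. SHRSP held the lowest array at 3 weeks and the 3 highest at 6 weeks, and the rise with age of 2.05 ± 0.39 (adjusted p = 0.00145) was called in all 18 refits. No strain difference of Isg15 was called, and the excess of its age change in SHRSP over SHR was 1.71 ± 0.56 (adjusted p = 0.0609). Usp18, which removes Isg15 and shuts off the receptor, was called nowhere, with standard errors of 0.50.

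Trim25 and Herc6 are ligases, of which HERC6 attaches ISG15 in rodents and TRIM25 activates the DDX58 sensor. Trim25 was higher in SHRSP than in SHR at 3 weeks by 0.39 ± 0.08 (adjusted p = 0.00769) and lower at 6 weeks by -0.29 ± 0.08 (adjusted p = 0.0232). The 6-week call was lost without replicate 2 or 3 of SHR or replicate 1 of SHRSP, with values from -0.33 to -0.25. Its age change in SHRSP lay below that in SHR by -0.69 ± 0.11 (adjusted p = 0.00137), with a fall of 0.40 in SHRSP (adjusted p = 0.0019) and a rise of 0.29 in SHR (adjusted p = 0.016). Herc6 was higher in SHR than in WKY at 3 weeks by 0.78 ± 0.21 (adjusted p = 0.0163), a call lost without replicate 1 of WKY or replicate 3 of SHR, with values from 0.60 to 0.95.

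Among the 4 interferon-induced GTPases, which attack vacuoles that hold microbes, Gbp2, Gbp5 and Irgm rose with age in SHRSP. The rises in turn were 0.44 ± 0.12 (adjusted p = 0.0123), 0.81 ± 0.19 (adjusted p = 0.00586) and 0.79 ± 0.18 (adjusted p = 0.00477). In that comparison 10.5% of all names rose and 18.4% fell. The Gbp2 call was lost without replicate 3 of SHRSP at 3 weeks (0.36), and the other 2 held in all 18 refits. Gbp5 was lower than in WKY in SHRSP at 3 weeks (-0.72 ± 0.19, adjusted p = 0.0125). Igtp was called nowhere through its brightest probe, whose SHRSP difference from WKY at 3 weeks was 0.11 ± 0.15 in the fit across all probes. The other Igtp probe gave -0.88 ± 0.18 for that comparison (adjusted p = 0.00355 over all probes) and 1.03 ± 0.18 for age in SHRSP (adjusted p = 0.00107). The dimmer Igtp probe also followed the other members from array to array (r = 0.84) while the brightest did not (r = 0.0056), as the plot of both probes shows.

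Parp9 and Dtx3l encode partner proteins, a member of the ADP-ribosyltransferase family and a ubiquitin ligase. Against WKY they differed in opposite directions in SHRSP at 3 weeks, and against SHR both were lower in SHRSP at 6 weeks. Parp9 measured -1.26, -1.08 and -1.05 in WKY, -0.58, -0.58 and -0.55 in SHR, and -0.83, -0.87 and -0.77 in SHRSP at 3 weeks. Values at 6 weeks were -0.90, -0.86 and -0.68 in WKY, -0.59, -0.42 and -0.33 in SHR, and -0.89, -1.01 and -1.19 in SHRSP. SHR lay above WKY on every array at both ages, by 0.56 ± 0.10 at 3 weeks (adjusted p = 0.000982) and 0.37 ± 0.10 at 6 weeks (adjusted p = 0.00963), and both calls held in all 18 refits. SHRSP lay between them at 3 weeks, 0.31 ± 0.10 above WKY (adjusted p = 0.0284, lost in 5 of 18 refits), and -0.58 ± 0.10 below SHR at 6 weeks (adjusted p = 0.00088). With age Parp9 rose in WKY by 0.31 ± 0.10 (adjusted p = 0.0464), a call lost in 14 of 18 refits. The age change in SHRSP lay below that in WKY by -0.52 ± 0.13 (adjusted p = 0.0254), a call lost without replicate 1 of WKY or 3 of SHRSP at 3 weeks, or replicate 3 of WKY or SHRSP at 6 weeks.

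Dtx3l was low in SHRSP at both ages. It measured -3.94, -3.63 and -3.42 in WKY, -3.22, -3.36 and -3.38 in SHR, and -4.16, -4.28 and -4.06 in SHRSP at 3 weeks. In the older animals it measured -3.59, -2.97 and -3.13 in WKY, -3.18, -3.07 and -3.15 in SHR, and -3.82, -4.06 and -4.22 in SHRSP. Every SHRSP array lay below every array of the other strains at its age. The differences from SHR were -0.85 ± 0.16 at 3 weeks (adjusted p = 0.00422) and -0.90 ± 0.16 at 6 weeks (adjusted p = 0.00146). Those from WKY were -0.50 ± 0.16 (adjusted p = 0.029) and -0.80 ± 0.16 (adjusted p = 0.00182). Only the 3-week call against WKY was lost in refits, in 4 of 18 with values from -0.64 to -0.38.

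Ifi44l, a protein of unsettled function that interferon induces strongly, carried the largest strain difference of the list. It measured -3.57, -3.44 and -3.59 in WKY, -6.03, -6.19 and -6.27 in SHR, and -6.0, -6.25 and -6.40 in SHRSP at 3 weeks. At 6 weeks it measured -3.10, -3.43 and -3.51 in WKY, -6.46, -6.13 and -6.18 in SHR, and -5.65, -5.72 and -5.73 in SHRSP. The 6 WKY arrays lay more than 2 log2 units above the 12 others, which were all well above background. The difference from WKY at 3 weeks was -2.63 ± 0.13 in SHR (adjusted p = 1.54e-08), 6.19-fold lower, and -2.68 ± 0.13 in SHRSP (adjusted p = 8.11e-09), 6.43-fold lower. At 6 weeks it was -2.91 ± 0.13 in SHR (adjusted p = 4.45e-09), 7.52-fold lower, and -2.36 ± 0.13 in SHRSP (adjusted p = 3.02e-08), 5.12-fold lower. Within slides the differences from WKY ran from -2.81 to -2.30, and the calls held in all refits.

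At 6 weeks Ifi44l was higher in SHRSP than in SHR by 0.55 ± 0.13 (adjusted p = 0.00818), and it rose with age in SHRSP by 0.52 ± 0.13 (adjusted p = 0.00701). The age change in SHRSP exceeded that in SHR by 0.61 ± 0.18 (adjusted p = 0.0395), a call lost in 12 of 18 refits. Ifi44, its relative, showed no such gap: it was lower than in WKY at 3 weeks by -0.38 ± 0.11 in SHR (adjusted p = 0.0286, lost in 4 of 18 refits) and -0.50 ± 0.11 in SHRSP (adjusted p = 0.00419). It rose with age in WKY by 0.40 ± 0.11 (adjusted p = 0.0316), in SHR by 0.81 ± 0.11 (adjusted p = 0.000139) and in SHRSP by 0.63 ± 0.11 (adjusted p = 0.0009), and the WKY call was lost in 5 of 18 refits. Ifi44l has 1 probe on the array, so its difference rests on the sequence printed above.

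Cxcl10, the chemokine that draws activated T cells, was lower than in WKY in 3 of the 4 comparisons of a hypertensive strain. It measured -1.26, -0.93 and -1.25 in WKY, -1.90, -2.70 and -1.98 in SHR, and -2.96, -2.54 and -3.70 in SHRSP at 3 weeks. The 6-week values were -0.55, -0.38 and -1.11 in WKY, -3.12, -2.34 and -2.64 in SHR, and -1.74, -1.36 and -1.18 in SHRSP. WKY lay above both strains on every array at each age, and the lowest group was SHRSP at 3 weeks and SHR at 6 weeks. The differences from WKY were -1.92 ± 0.31 for SHRSP at 3 weeks (adjusted p = 0.000372) and -2.02 ± 0.31 for SHR at 6 weeks (adjusted p = 0.000233). For SHR at 3 weeks the difference was -1.05 ± 0.31 (adjusted p = 0.0275), lost without any 1 of the WKY arrays or replicate 2 of SHR, with values from -1.2 to -0.79. For SHRSP at 6 weeks it was -0.75 ± 0.31 (adjusted p = 0.0953) and was not called. SHRSP exceeded SHR at 6 weeks by 1.27 ± 0.31 (adjusted p = 0.0114), Cxcl10 rose with age in SHRSP by 1.64 ± 0.31 (adjusted p = 0.00115), and that age change exceeded the one in SHR by 2.14 ± 0.43 (adjusted p = 0.00542).

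Ifi27 and Ifi27l2b, small mitochondrial proteins of 1 family and neighbours on chromosome 6, rose with age in all 3 strains, as Ifi44 did. Ifi27l2b ran from 3.38 to 4.56 on the 9 arrays at 3 weeks and from 5.28 to 5.95 on the 9 at 6 weeks, so that the ages did not overlap. Its rises were 1.72 ± 0.21 in WKY (adjusted p = 0.000168), 1.5 ± 0.21 in SHR (adjusted p = 0.000175) and 2.13 ± 0.21 in SHRSP (adjusted p = 6.94e-06), and its second probe gave 1.60, 1.47 and 2.28. Ifi27 rose by 1.18 ± 0.18 in WKY (adjusted p = 0.000668), 0.90 ± 0.18 in SHR (adjusted p = 0.00186) and 1.29 ± 0.18 in SHRSP (adjusted p = 0.000105). All 6 calls held in each of the 18 refits, and no strain difference of either gene was called. Of 9 tested T and NK cell markers, 5 rose with age in WKY, 5 in SHR and 1 in SHRSP, where 5.16%, 15.1% and 10.5% of all names rose. The range of their mean level went from -5.24 to -5.08 at 3 weeks to -4.80 to -4.35 at 6 weeks in WKY. Of the T cell genes listed, Cd3d, Cd3g, Cd4, Cd8b and Lck were well above background on all 18 arrays. Cd3e, Cd8a, Cd2 and Trat1 were so on 5, 8, 1 and 0 arrays and were not tested. Their part in the age differences of the members was not tested.

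**Figure D3:**
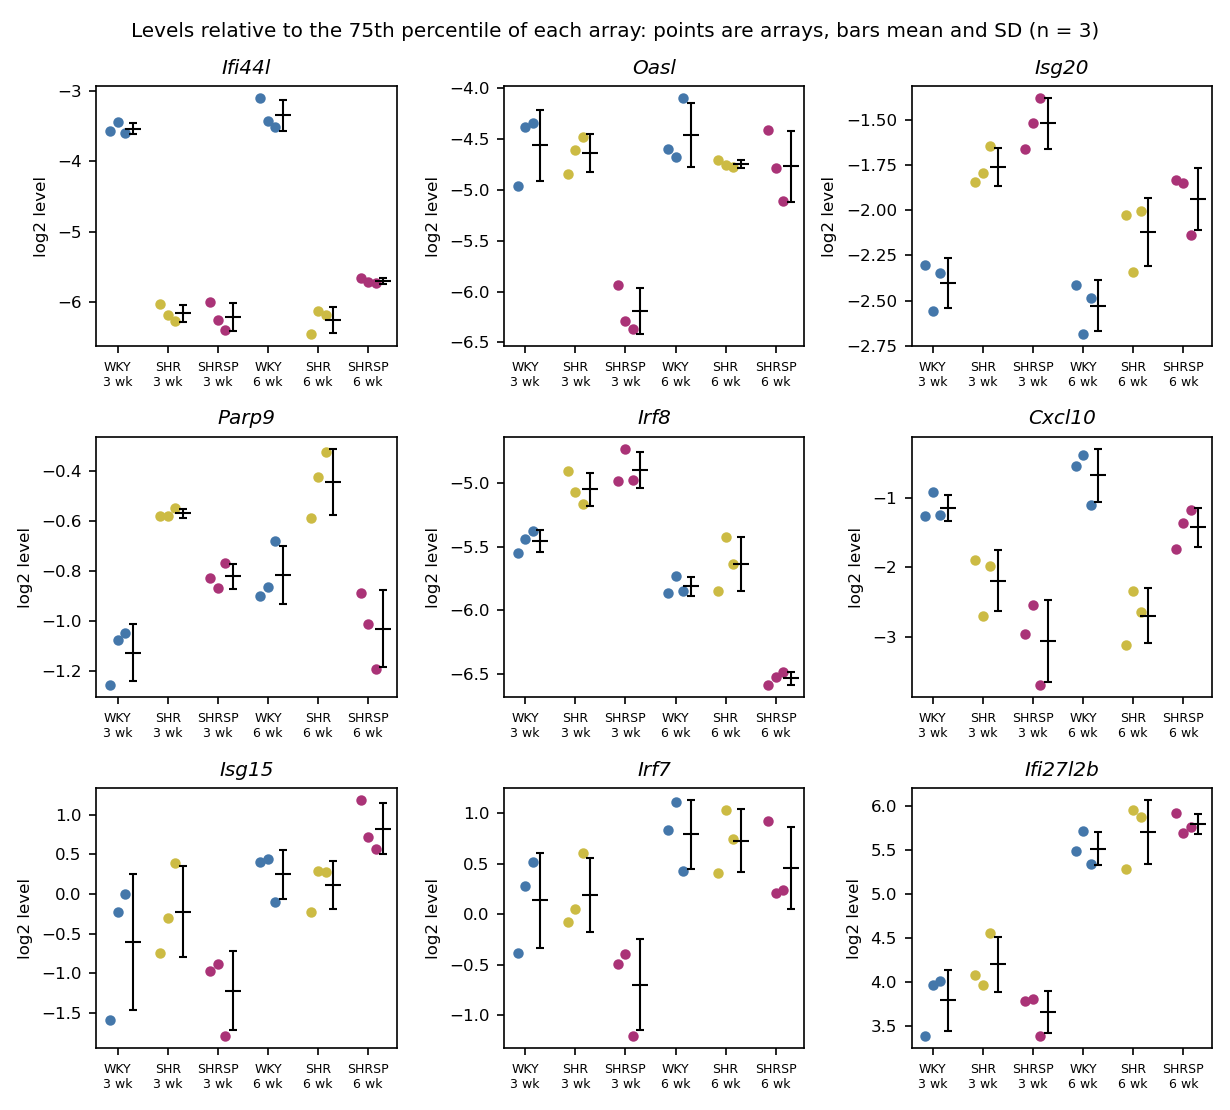
The log2 level of 9 members on each array is plotted by group relative to the array's 75th percentile, with points for arrays and bars for the mean and SD of 3; each panel has its own scale. Ifi44l separates WKY from both other strains, Oasl is low only in SHRSP at 3 weeks, Isg20 and Parp9 have their lowest 3-week values in WKY, Irf8 is lowest in SHRSP at 6 weeks, and Isg15 and Irf7 spread widely within groups.

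How far the members moved together in single arrays was read from each member's deviation from the mean of its own group, which removes strain and age. On replicate 1 of WKY at 3 weeks, 44 of 48 members lay below their group mean, with a median deviation of -0.23, and 9 lay more than 0.5 below. Of all tested names, 49.7% lay above the group mean on that array. On replicate 3 of SHRSP at 3 weeks, 38 of 47 members lay below (median -0.18), 10 of them by more than 0.5. Other arrays held most members on 1 side too: 41 lay below on replicate 3 of WKY at 6 weeks (median -0.17), 40 below on replicate 1 of SHR at 6 weeks (median -0.17), 39 above on replicate 3 of SHR at 3 weeks (median 0.16) and 39 above on replicate 1 of SHRSP at 6 weeks (median 0.15). On 11 of 18 arrays at least 38 members fell on 1 side. The deviations of a member cancel out within its group, so an array far on 1 side pushes the others to the opposite side. In WKY at 3 weeks, 42 and 40 members lay above on replicates 2 and 3. The 11 arrays are therefore not separate observations. The share of members above their group mean ran from 8.33% to 87.5% over arrays, and that of all tested names from 34.1% to 61.5%.

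Single members moved further than the medians. Usp18 deviated by -1.12 on replicate 1 of WKY and -0.93 on replicate 3 of SHRSP at 3 weeks, and by 0.75 and 0.67 on replicate 3 of WKY and of SHR at that age. On the 2 low arrays the macrophage markers deviated by -0.04 and -0.04 and the T and NK cell markers by -0.08 and -0.08. The cortex markers deviated there by -0.03 and 0.07, the adipose markers by -0.38 and 0.19, and the 2 B and plasma cell markers by -0.30 and -0.13. The 5 tested neutrophil markers lay 0.48 and 0.47 above their group means. These neutrophil markers deviated by -0.24 on replicate 3 of WKY and -0.44 on replicate 1 of SHR at 6 weeks, where most members were also low. Replicate 1 of WKY at 3 weeks also had 77.9% of spots well above background, near the lowest of all arrays, and replicate 3 of SHRSP had 81.0%. The lowest share, 77.8%, was that of replicate 3 of SHR at 6 weeks, where 29 of 48 members lay above their group mean. The part of these markers and shares in the deviations was not tested.

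Deviations of members were correlated with each other. Over 18 arrays, the median Pearson r of 1081 pairs of 47 members without missing values was 0.40, and 41.2% of pairs exceeded 0.5, while the median over all pairs of 20660 names was 0.02 with 13.1% above 0.5. These values describe arrays that share an RNA sample, a labelling and a slide for all members. Each member's deviation was also set against the median deviation of the others. This r exceeded 0.8 for 21 members, led by Oas1k (0.96), Irf7 (0.96), Oasl2 (0.93), Rtp4 (0.93), Dhx58 (0.93) and Isg15 (0.92). It was 0.5 or lower for 17, among them Irf8 (0.37), Parp9 (0.30), Dtx3l (0.21) and Igtp (0.0056), and below 0 for Isg20 (-0.28) and Ifitm2 (-0.37).

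**Figure D4:**
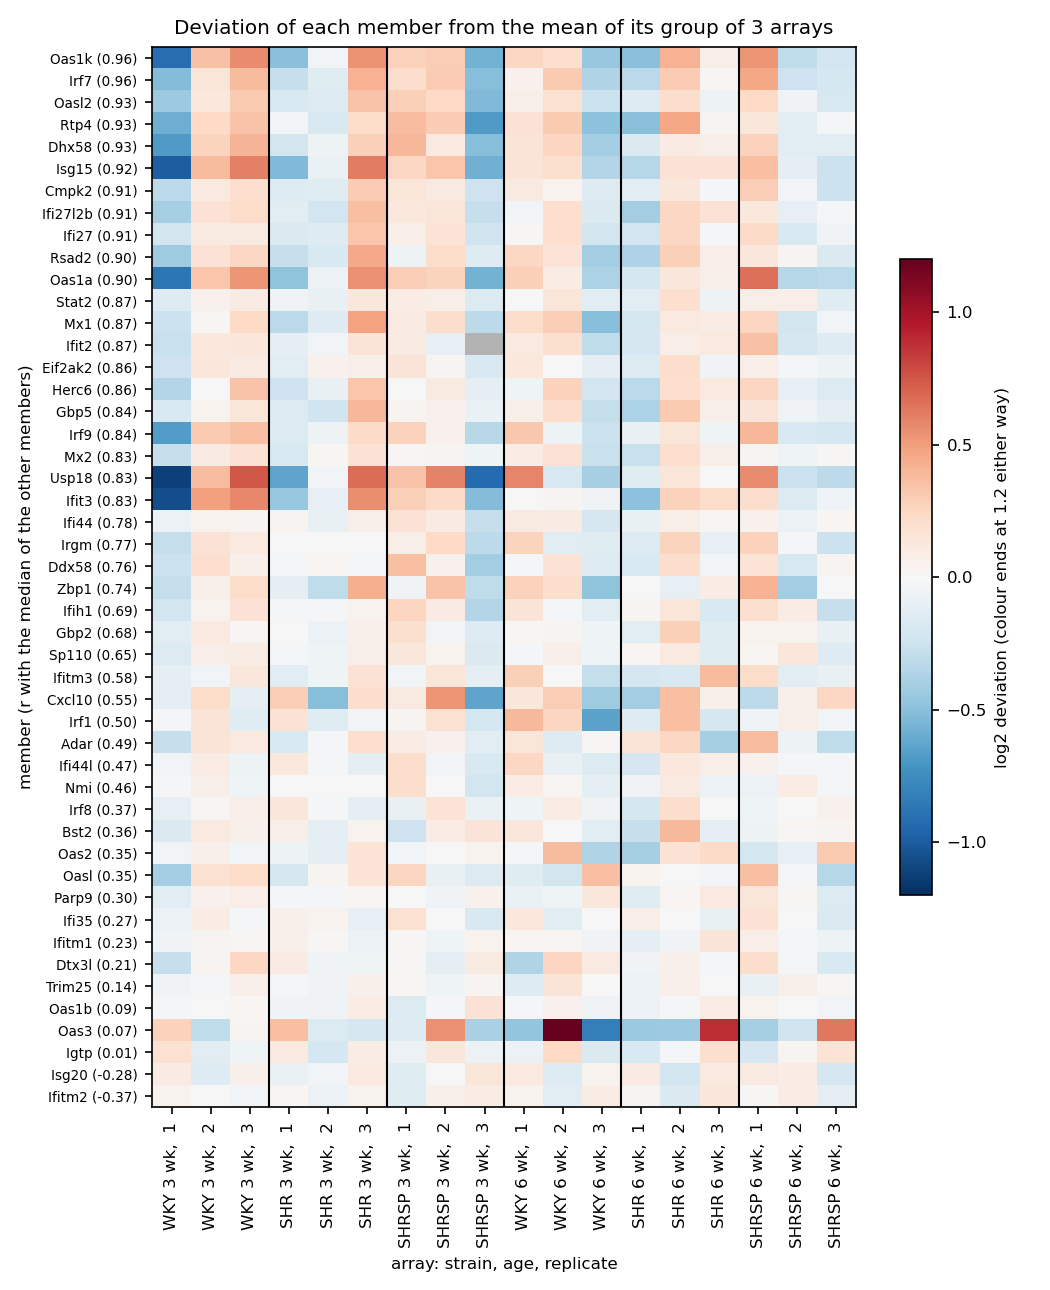
Each cell shows the log2 deviation of 1 member (vertical axis, ordered by its r with the median of the other members, given in brackets) from its group mean on 1 of 18 arrays (horizontal axis), from blue (below) to red (above), with grey for the missing Ifit2 value. Replicate 1 of WKY and replicate 3 of SHRSP at 3 weeks appear as blue columns in the upper part, where r is high, and the lowest lines, such as Isg20 and Ifitm2, do not follow them.

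In all, 24 of the 48 members were called in at least 1 of the 6 strain comparisons, as were 10427 of all 20846 tested names (50%). Of the 21 members with r above 0.8, 6 were among them, as were 7 of the 10 with r between 0.5 and 0.8 and 11 of the 17 at 0.5 or lower, and the difference between these sets was not tested. The median SD of deviations was 0.32 in the first set and 0.15 in the last. Of the first set, Oas1a, Oas1k, Mx1, Mx2, Irf9, Rsad2 and Usp18 were called in no pairwise comparison of strains or ages. All others of that set were called in at least 1, among them Isg15, Irf7, Ifit3 and Oasl2. Of members with a promoter sequence, the response element core was present in 8 of 13 with r above 0.8, 7 of 8 between, and 9 of 14 at 0.5 or lower.

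Comparisons within slides differed between the slides that held these arrays. Within slides the members' median for SHRSP minus WKY at 3 weeks was 0.11 on slide 1, which holds replicate 1 of both, and -0.67 on slide 4, which holds replicate 3 of both. SHRSP minus SHR at 3 weeks gave -0.16 and -0.75 on the same slides. The age difference in WKY was 0.55 on slide 1 and -0.09 on slide 4, that in SHR -0.08 on slide 2, and that in SHRSP 0.27 on slide 3. The members called over all arrays kept their sign in each within-slide comparison that could be made. The exception was 1 of 20 (Ddx58) for SHRSP minus WKY on slide 1. Those members were called on these same arrays, so most of this agreement was fixed by that choice and is no separate check. Without replicate 1 of WKY and replicate 3 of SHRSP at 3 weeks together, a choice made after the data were seen, SHRSP had 2 members higher and 11 lower than WKY at 3 weeks, and 18 rose and 3 fell with age in SHRSP.

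The rest of the pathway was measured in part. Of 14 listed interferon genes, 5 had a probe; Ifng was well above background on 0 of 18 arrays, Ifnb1 on 9 and Ifna1 on 3, and only Ifna4 was tested. Among 28 tested receptors, kinases, sensors, adaptors and regulators with Ifna4, the calls higher and lower than WKY were 3 and 2 for SHR and 3 and 2 for SHRSP at 3 weeks, where 18.2% and 26.2% of all names were called. At 6 weeks they were 7 and 3 for SHR and 5 and 4 for SHRSP, with 29.2% and 23.9% of all names called. SHRSP against SHR gave 0 and 1 at 3 weeks and 4 and 3 at 6 weeks, with 7.94% and 14.9% called. With age, 3 rose and 0 fell in WKY, 7 and 3 in SHR, and 7 and 1 in SHRSP, with 12.3%, 29.3% and 28.9% called.

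Ifngr2, a chain of the interferon gamma receptor, was lower than in WKY in all 4 comparisons, by -0.55 ± 0.08 and -0.80 ± 0.08 at 3 weeks and by -0.71 ± 0.08 and -0.51 ± 0.08 at 6 weeks, for SHR and SHRSP in turn (adjusted p = 0.00024, 6.82e-06, 1.77e-05 and 0.000256). Its partner Ifngr1 was higher in SHRSP by 0.49 ± 0.14 at 3 weeks (adjusted p = 0.0204) and 0.71 ± 0.14 at 6 weeks (adjusted p = 0.00245). Jak2, the kinase bound to that receptor, was higher than in WKY at 3 weeks by 0.66 ± 0.20 in SHR (adjusted p = 0.0361) and by 0.66 ± 0.20 in SHRSP (adjusted p = 0.0262), and at 6 weeks by 0.84 ± 0.20 in SHR (adjusted p = 0.00654). Il10rb, a chain of the interferon lambda receptor, rose with age in each strain, by 0.31 in WKY (adjusted p = 0.0351), 0.49 in SHR (adjusted p = 0.00104) and 0.91 in SHRSP.

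Among sensors, Tlr3, the endosomal receptor for double-stranded RNA, rose with age in SHR by 0.48 ± 0.16 (adjusted p = 0.039) and in SHRSP by 1.56 ± 0.16 (adjusted p = 9.73e-06), and in SHRSP at 6 weeks it was 1.14 ± 0.16 above WKY (adjusted p = 0.000146). Ikbke, a kinase that activates the interferon regulatory factors, fell with age by 0.92 in SHR (adjusted p = 7.42e-05) and by 0.89 in SHRSP (adjusted p = 8.1e-05), and lay below WKY at 6 weeks by -0.92 ± 0.12 in SHR (adjusted p = 5.93e-05) and -0.79 ± 0.12 in SHRSP (adjusted p = 0.000205). Of the negative regulators, Pias3 was lower than in WKY in SHR at both ages (-0.40 and -0.50) and in SHRSP at 3 weeks (-0.43). A further list of 36 tested interferon-induced genes was also counted against WKY. At the younger age SHR had 3 of them higher and 1 lower, and SHRSP had 1 higher and 10 lower. Of all names, 18.2% were called in that SHR comparison, and 14.8% were higher and 11.4% lower in that SHRSP comparison. At 6 weeks 8 genes of the list were higher and 4 lower in SHR, and 4 higher and 3 lower in SHRSP. In those SHR and SHRSP comparisons, 29.2% and 23.9% of all names were called. Against SHR, SHRSP had 0 higher and 5 lower at 3 weeks, and 3 higher and 1 lower at 6 weeks. The shares of all names called were 7.94% and 14.9%. With age 2 rose and 2 fell in WKY and 7 rose and 4 fell in SHR, with 12.3% and 29.3% of all names called. In SHRSP 13 rose and 2 fell, where 10.5% of all names rose and 18.4% fell.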

How the data were processed

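Adrenal gland RNA of 18 samples was measured on 18 one-colour arrays on 5 slides, scanned on 3 days. Per the labels' protocols, 200 ng of RNA was amplified from oligo-dT primers and labelled with Cy3. Per the file headers, the deposited values are the scanner software's processed signal, a linear intensity corrected for spatial trends, with no local background subtracted, low values replaced by a surrogate and no scaling between arrays. The authors' deposited series table held the same intensity values.

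Control spots and spots marked as outliers were left out, the log2 values of repeated spots were averaged per probe, and each array's 75th percentile (2092 to 2602 intensity units as deposited) was subtracted. Each gene name was represented by its brightest probe and kept where every array of 1 group or more was well above background. limma 3.58.1 (R 4.3.3) fitted 6 group means over all 18 arrays, with 9 pairwise comparisons and 3 of age changes, and adjusted p-values over all 20846 names (Benjamini-Hochberg, threshold 0.05). The script was tested on simulated data. Array replicates correlated at 0.987 to 0.996, and the number of arrays limits the precision.

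The members and gene lists were chosen with earlier results of these data known. Members called in at least 3 of 6 strain comparisons, and Stat2, Irf7, Irf9, Isg15 and Mx1 whatever their result, are given on every array. The up to 4 largest called differences in each direction of each pairwise comparison and every called difference between age changes are named, with up to 3 a direction from the pathway list, of which a part is printed and 1 gene is not reported here. Other members named by role, Oasl and Irf1 on single arrays, the 6 promoters and the 2 probe sequences were chosen after their values were seen. Alternatives were other normalizations, background correction, filters, probe rules, slide, scan day or replicate number as a block, fits on the compared arrays alone and each array left out.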

Additional observations from a re-analysis of the deposited data

Results flagged for a closer look

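For 13 members the change from 3 to 6 weeks differed between strains in limma's test of the difference itself (adjusted p under 0.05 over all tested names). Eif2ak2 differed in all 3 pairs of strains: its age change in SHR minus that in WKY was -0.80 (adjusted p = 0.0200), in SHRSP minus WKY 1.01 (adjusted p = 0.00333) and in SHRSP minus SHR 1.81 (adjusted p = 1.59e-05), all from the brightest of its 2 probes; the other probe's age changes were 0.22 in WKY, 0.22 in SHR and 0.40 in SHRSP, none called. For SHRSP minus WKY, the other values were -1.29 for Irf8, 1.33 for Oasl and -0.52 for Parp9.

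For SHRSP minus SHR, the chemokine Cxcl10 differed by 2.14, Oasl by 1.54, Oasl2 by 1.44, Ifit2 by 0.94, Cmpk2 by 0.88, Ifih1 by 0.80, Ifi44l by 0.61 and Nmi by 0.55. Irf8 differed by -1.05, Bst2 by -0.73 and Trim25 by -0.69. In the 18 refits without 1 array, the calls of Bst2 and Ifi44l were each lost in 12, Ifih1 in 9, Ifit2 in 8, Cmpk2 in 7, Parp9 in 4 and Eif2ak2 for SHR minus WKY in 1, and the others held in all.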

How the results depend on the processing

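Of 121 calls of members over the 12 comparisons, 77 held in all 18 refits without 1 array, and none turned its sign under any alternative. Counts of calls ranged over those refits from 6 to 10 and 13 to 26 for SHR and SHRSP against WKY at 3 weeks, 6 to 10 for SHRSP against SHR at 3 weeks, 6 to 9, 6 to 9 and 6 to 8 for the same pairs at 6 weeks, 3 to 6, 7 to 12 and 18 to 27 for age in WKY, SHR and SHRSP, and 0 to 2, 3 to 6 and 7 to 13 for age changes in SHR minus WKY, SHRSP minus WKY and SHRSP minus SHR. Quantile normalization kept 109 calls, normexp 107, no filter 107, the mean of probes 115, slide as a fixed block 100, slide as a random block 119 and scan day 116. Fits on the compared arrays alone kept 91, with 4 calls for SHRSP against SHR at 3 weeks, 4 for SHR against WKY at 6 weeks and 3 for age in WKY. Without a filter, 7 age changes differed between SHRSP and SHR. For SHR minus WKY they were 0 with the mean of probes, 2 with slide as a random block and 2 with scan day, and for SHRSP minus WKY 7 with slide as a random block. Without the 2 arrays on which members were low, chosen after seeing the data, calls were 13 for SHRSP against WKY and 6 against SHR at 3 weeks, 3 for age in WKY and 7 for SHRSP minus SHR age changes. With quantile normalization 5 members rose and 7 fell with age in SHR, against 6 and 4. The cause of these shifts was not tested. The replicate number as a block kept 116 calls, with 4 higher and 13 lower in SHRSP than in WKY at 3 weeks. Deviations of same-numbered arrays had a median r of 0.028 over 45 pairs. Arrays of different numbers on the same slide had a median r of 0.34 over 7 pairs. With slide in these values, whether the numbers pair the samples could not be told.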
